A study of Mus musculus with 8 samples.

Results

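The 32 genes described here encode proteins that copy the genome in S phase or divide the cell in G2 and mitosis. They were taken by symbol from the bulk count table, which lists 52459 genes, and from both single-cell matrices, which list 31053; all 32 were present in each. Of the 32, 10 act in S phase (Mcm2, Mcm3, Mcm5, Mcm6, Pcna, Rrm2, Tyms, Pclaf, Ccne1 and Ccne2) and 22 in G2 and mitosis. The tumors came from FC1242, a mouse pancreatic cancer line that the labels call KPC, the name of a mouse model of pancreatic cancer. C57BL/6 mice received 100000 cells, and tumors were taken after 3 weeks from the pancreas (primary) or from the liver (metastatic). Neither group carried a further allele or treatment, all tumors derive from 1 line, and sex, age and the number of mice behind a library are not stated. Whole tumor tissue gave 3 bulk RNA-seq libraries per site, and cells sorted for CD45, the pan-leukocyte protein, gave 1 10x 3' single-cell library per site. The comparisons ask whether the cell cycle genes differed between sites in whole tumors, and which cell types carried them.

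A cell entering the cycle makes cyclin E, which with its kinase opens S phase. The MCM proteins then unwind DNA, PCNA holds the polymerase on the strand, and RRM2 and TYMS supply nucleotides. Later the cyclins A and B drive CDK1 into mitosis, Aurora and Polo-like kinases build the spindle, and UBE2C and CDC20 work with the anaphase-promoting complex to destroy the cyclins. Because these transcripts are made almost only in dividing cells, they serve as proliferation markers in tumors, where cancer cells, T cells and some macrophages can all divide.

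The promoters of these genes are shown first, since G2/M genes are known to share a CHR element and CCAAT boxes, and S phase genes an E2F site. Windows from 250 bases before to 50 after the RefSeq start (GRCm38.p6) were found for 28 of the 32, 19 of G2/M and 9 of S phase, and each motif was searched on both strands. The CHR, TTTGAA, occurred in 15 of 19 G2/M promoters (78.9%) and 1 of 9 S phase promoters, against 18.1% of the 27025 promoters in the table. A CCAAT box occurred in 16 of 19 and 7 of 9, against 37.9%. An E2F site (TTTGGCGC, TTTCCCGC, TTTCGCGC or TTTGCCGC) occurred in 4 of 9 S phase and 2 of 19 G2/M promoters, against 2.32%. The palindrome TTTAAA, a CHR variant, occurred in 6 of 19 and 4 of 9, against 13.2%. In these 28 promoters 1 pair of matches to different motifs overlapped. The 5 stretches below are the 100 bases before the RefSeq start, 5′ to 3′ along the gene, with matches in capitals; they were picked after the motifs had been seen, among members with no GENCODE vM21 exon in the stretch, to show a stretch that holds the CHR with CCAAT boxes, CCAAT boxes alone, or an E2F site. Top2a lies on the minus strand at chr11:99024190-99024289, Kif11 on the plus strand at chr19:37376282-37376381, Ccnb2 on the minus strand at chr9:70421555-70421654, Mcm6 on the minus strand at chr1:128359706-128359805 and Mcm5 on the plus strand at chr8:75109409-75109508.
Top2a: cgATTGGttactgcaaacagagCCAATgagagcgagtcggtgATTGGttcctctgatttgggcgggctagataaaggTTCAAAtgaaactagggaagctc
Kif11: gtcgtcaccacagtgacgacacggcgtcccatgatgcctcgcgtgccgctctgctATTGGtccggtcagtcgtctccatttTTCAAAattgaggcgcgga
Ccnb2: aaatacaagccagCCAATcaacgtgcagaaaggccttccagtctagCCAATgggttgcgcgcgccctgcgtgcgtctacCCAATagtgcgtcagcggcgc
Mcm6: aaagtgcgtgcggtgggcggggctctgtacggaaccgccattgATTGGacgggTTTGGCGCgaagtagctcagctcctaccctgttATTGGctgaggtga
Mcm5: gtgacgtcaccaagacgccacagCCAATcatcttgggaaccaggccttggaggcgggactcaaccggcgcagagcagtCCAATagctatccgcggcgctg
Over the whole searched window, Top2a held 6 CCAAT boxes and 2 CHR matches, Kif11 1 of each, and Ccnb2 3 CCAAT boxes and 2 CHR matches. The window of Mcm6 held 2 CCAAT boxes and 3 E2F sites. That of Mcm5 held 3 CCAAT boxes, 2 E2F sites and 1 CHR variant. A match is a description of the sequence, and neither data type measured binding there.

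Bulk libraries held 27481000 to 36743000 reads. The liver tumors contained liver tissue: 30 of 30 hepatocyte genes were higher there, and these took 8.74% to 14.4% of reads against 0.0192% to 0.067% in primary tumors. Summed macrophage markers (14 genes) ran from 905 to 2050 CPM in primary and from 7808 to 16252 CPM in liver tumors, and summed epithelial markers (10 genes) from 3809 to 10056 and from 2661 to 3017 CPM. These lists moved with site, and their part in the cell cycle comparison was not tested. In bulk tissue, fewer cells of a type and less RNA per cell cannot be told apart. CPM below are counts scaled to library size with TMM factors, and labels do not say that replicates came from separate mice, so p-values measure the spread between these libraries. Below, a numbered primary or liver tumor is the bulk library with that replicate number.

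None of the 32 cell cycle genes passed the test between liver and primary tumors. edgeR's quasi-likelihood test with Benjamini-Hochberg adjustment at 0.05 called 0 of 32 in either direction, 0 had an unadjusted p under 0.05, and DESeq2 and limma-voom also called 0, with 1 such p each. Over all genes tested, 23.0% were called. Log2 changes of the members, liver over primary, ran from -0.48 to 0.60 with a median of -0.14 (21 below and 11 above 0), against -0.07 for all 16487 genes tested. For 29 of 32 the 95% interval lay within 1 of 0 on the log2 scale, so a 2-fold difference lay outside it; the exceptions were Pclaf, Ccne1 and Ccne2. Groups did not overlap for 2 members, 1 in each direction, against 44.1% of all genes.

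**Figure D1:**
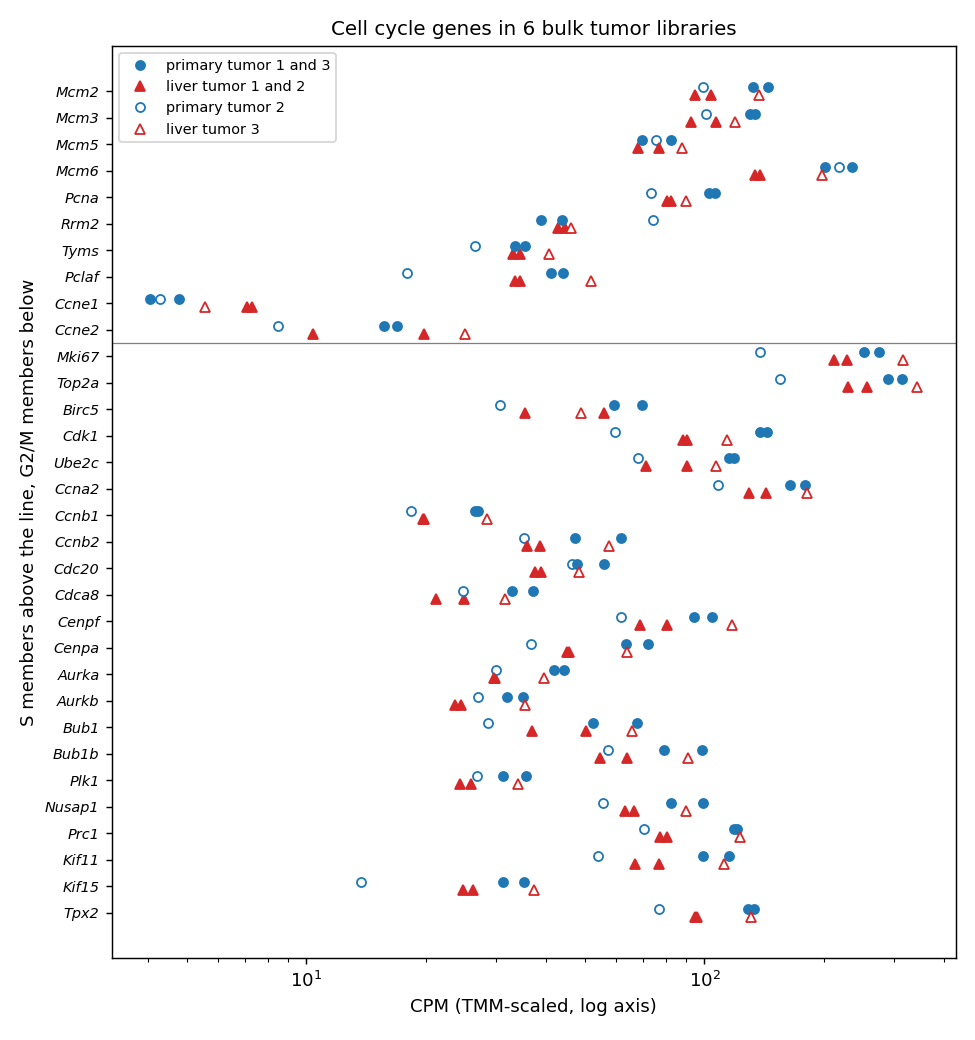
CPM of the 32 members (log axis) in each of the 6 bulk libraries, 1 point per library, primary circles and liver triangles. The open circle, primary tumor 2, is the lowest of the 6 points for 20 members, and the open triangle, liver tumor 3, is the highest for 12.

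Of the 4 genes of the replicative helicase, 3 had changes below 0 and none passed the test. Mcm6, a subunit of the MCM ring, was measured at 234, 218 and 201 CPM in primary tumors and at 138, 134 and 197 CPM in liver tumors. All 3 liver values lay below all 3 primary values, with liver tumor 3 only just below primary tumor 3. The change was -0.48 (SE 0.22, 95% interval -0.98 to 0.02, edgeR adjusted p = 0.152). Mcm2, Mcm3 and Mcm5, other subunits of the ring, had changes of -0.17, -0.20 and 0.03, and their groups overlapped.

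Both cyclin E genes had changes above 0, and neither passed the test. Ccne1, which starts S phase with CDK2, was measured at 4.06, 4.30 and 4.77 CPM in primary and 7.08, 7.31 and 5.57 CPM in liver tumors. The groups did not overlap, and the change was 0.60 (SE 0.27, interval -0.01 to 1.22, edgeR adjusted p = 0.142). Ccne2, its close relative, had 16.8, 8.49 and 15.7 CPM in primary and 10.4, 19.7 and 25.0 CPM in liver tumors. The groups overlapped only through the liver value of 10.4 CPM, and the other liver values lay above all primary values. The change was 0.43 (interval -0.44 to 1.29).

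Of the other S phase members, Rrm2, the regulated subunit of ribonucleotide reductase, had 38.9, 74.0 and 43.8 CPM in primary and 42.8, 44.6 and 46.2 CPM in liver tumors. Primary tumor 2 was the highest of the 6 for this gene, the only member of which that was true. Pcna, Tyms (thymidylate synthase) and Pclaf (a PCNA-binding protein) had changes of -0.16, 0.19 and 0.21, and for all 3 primary tumor 2 was the lowest library.

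The proliferation markers Mki67, which coats mitotic chromosomes, and Top2a, which untangles DNA, varied more within each site than their means differed between sites. Mki67 was measured at 274, 138 and 251 CPM in primary and 211, 228 and 315 CPM in liver tumors, a change of 0.18 (SE 0.30, interval -0.51 to 0.88). Top2a had 313, 155 and 289 CPM in primary and 229, 256 and 342 CPM in liver tumors, a change of 0.13 (SE 0.31, interval -0.57 to 0.83). For both genes the extremes of all 6 libraries were primary tumor 2 and liver tumor 3.

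Cdk1, the mitotic kinase, was measured at 144, 59.5 and 138 CPM in primary and 90.3, 88.2 and 114 CPM in liver tumors. Its change was -0.22 (SE 0.33, interval -0.97 to 0.53). Its partners Ccna2, Ccnb1 and Ccnb2 had changes of 0.01, -0.09 and -0.13. Ube2c, the ubiquitin-conjugating enzyme of the anaphase-promoting complex, had 119, 68.0 and 115 CPM in primary and 90.4, 71.4 and 107 CPM in liver tumors, and Cdc20, its activator, had a change of -0.27. In all of these the groups overlapped.

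The 3 members of the chromosomal passenger complex, which corrects chromosome attachment, had changes of -0.19 (Birc5), -0.17 (Aurkb) and -0.29 (Cdca8), the last being the lowest of the 22 G2/M members. The mitotic kinases and checkpoint genes ran from -0.23 (Aurka) through -0.16 (Bub1b and Plk1) to 0.04 (Bub1). The 7 kinetochore, spindle and motor genes (Cenpa, Cenpf, Nusap1, Prc1, Kif11, Kif15 and Tpx2) ran from -0.16 to 0.14, with Kif15, a spindle motor, at the upper end. Adjusted p in these 3 groups was 0.395 or higher.

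**Figure D2:**
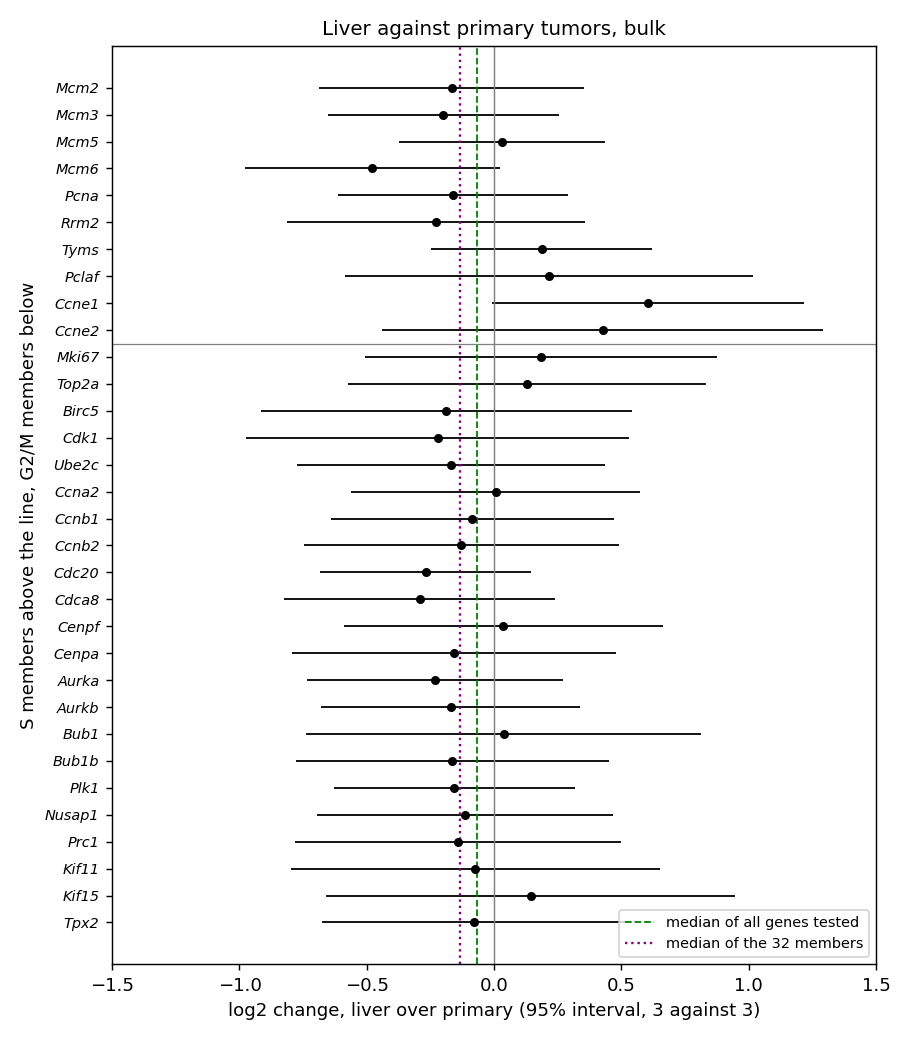
Log2 change of each member, liver over primary, with its 95% interval from edgeR (3 against 3 libraries); dashed and dotted lines mark the medians of all genes tested (-0.07) and of the members (-0.14). Every interval reaches 0, and only those of Pclaf, Ccne1 and Ccne2 reach 1.

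Summed over the 32, they came to 3046, 1921 and 2838 CPM in primary and 2168, 2217 and 3012 CPM in liver tumors. Primary tumor 2 was lowest of the 6 and lay below every liver library, while primary tumor 1 was highest and held the highest value for 16 members. In primary tumor 2 the G2/M sum stood at 1.75 times the S phase sum, against 2.63 and 2.65 in the other primary and 2.52, 2.53 and 2.76 in the liver libraries. That library also held the most summed epithelial marker CPM, 10056 against 3809 and 4575 in the other primary tumors, and its part in the spread was not tested. Without primary tumor 2 the member median was -0.30, without liver tumor 3 it was -0.31, and without primary tumor 1 it was 0.02, with 0 members called each time. Per length, on the authors' FPKM scale, the highest mean levels were those of Mcm6 (39.9), Pcna (37), Ccna2 (36.8) and Ube2c (36.4), and the lowest were those of Ccne1 (2.07) and Kif15 (2.54).

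Around the members, 126 of 127 other cell cycle genes were tested, and 2 were higher and 9 lower in liver tumors, where 16.7% and 6.26% of all genes were. The genes that brake the cycle held 4 of the 9. Of 19 CDK inhibitors and quiescence genes, 4 were lower and 0 higher, with a median of -0.38. Cdkn2b, which blocks CDK4 and CDK6, was measured at 99.4, 76.9 and 86.5 CPM in primary and 46.9, 39.1 and 52.7 CPM in liver tumors. The groups did not overlap, and it fell by 0.92 on the log2 scale (SE 0.19, edgeR adjusted p = 0.0103). Cdkn2a, the gene of p16 and p19Arf, was measured at 346, 253 and 363 CPM in primary and 178, 124 and 182 CPM in liver tumors, and it fell by 0.99 (SE 0.24, edgeR adjusted p = 0.0223). Gadd45a, a DNA damage response gene, fell by 1.34 (adjusted p = 0.0167), and Btg1, an antiproliferative gene named here after its value was seen, fell by 0.73 (adjusted p = 0.0466). Each of these 4 calls was lost when some single libraries were left out. The edgeR adjusted p of Cdkn2a was 0.06 without primary tumor 1, 0.0739 without primary tumor 3, 0.0508 without liver tumor 1 and 0.111 without liver tumor 2. That of Gadd45a was 0.0657 without liver tumor 1 and 0.0872 without liver tumor 2, and that of Cdkn2b was 0.0658 without liver tumor 2. That of Btg1 was above 0.05 without any 1 library other than primary tumor 2, from 0.0832 without liver tumor 3 to 0.200 without liver tumor 2 (0.0978 and 0.15 without primary tumors 1 and 3, and 0.0922 without liver tumor 1).

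The other inhibitors did not pass. Cdkn1a, the gene of p21, had 32.7, 171 and 35.6 CPM in primary and 28.3, 46.5 and 42.6 CPM in liver tumors, so primary tumor 2 stood far above the rest (change -1.03, edgeR adjusted p = 0.263). Cdkn1b, the gene of p27, had a change of -0.66, did not overlap between groups and had an edgeR adjusted p of 0.0686, against 0.0406 in DESeq2 and 0.0301 in edgeR without liver tumor 3.

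Of 23 G1 cyclins, CDKs and E2F genes, 2 were lower and 0 higher. Mycn, a proto-oncogene of the MYC family, was measured at 43.1, 38.8 and 43.1 CPM in primary and 17.2, 17.2 and 23.2 CPM in liver tumors, and it fell by 1.11 (SE 0.19, edgeR adjusted p = 0.00437). Cdc25a, a phosphatase that activates CDK2, fell by 0.70 (edgeR adjusted p = 0.0449). Its adjusted p exceeded 0.05 when any library but primary tumor 1 was left out, with values from 0.0596 without liver tumor 3 to 0.186 without liver tumor 2 (0.06 and 0.0788 without primary tumors 2 and 3, and 0.0875 without liver tumor 1). Not called were Ccnd1 (cyclin D1, -0.00), E2f1 (-0.07), Foxm1 (0.02) and Mybl2 (0.16), the last 3 being transcription factors of S phase and G2/M genes, and Myc (-0.50, edgeR adjusted p = 0.116, or 0.0470 without primary tumor 2).

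Of 35 other S phase genes, 2 were higher and 2 lower. Mcm10, a replication initiation factor, was measured at 38.8, 23.6 and 38.2 CPM in primary and 136, 82.3 and 59.8 CPM in liver tumors, and rose by 1.46 (SE 0.33, edgeR adjusted p = 0.0161). Without liver tumor 1 the change was 1.06 with an adjusted p of 0.0644. The strand used in counting is not stated, so reads of overlapping or antisense genes cannot be told apart. Ung, a uracil-DNA glycosylase, rose by 0.88 (adjusted p = 0.0263), and Cdt1, a licensing factor, fell by 0.65 (adjusted p = 0.0391). The adjusted p of Ung was above 0.05 without any 1 library other than primary tumor 2, from 0.0575 to 0.0935, and that of Cdt1 without any other than liver tumor 3, from 0.0511 to 0.180. Of 50 other G2/M genes, 49 were tested and 1 was lower, Jpt1, a microtubule-associated protein gene (-0.63, edgeR adjusted p = 0.0434). Its adjusted p was above 0.05 without any 1 library other than primary tumor 2, from 0.0554 to 0.203.

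In the single cells, 2236 primary and 7154 liver cells passed the filters (1500 or more UMIs, 200 or more genes, no more than 10% of UMIs mitochondrial, doublets removed), with medians of 11996 and 6848 UMIs; 7 cell barcodes occurred in both libraries. Cells were grouped into 25 clusters with the cell cycle genes left out, and named from marker genes. Despite the CD45 sort, epithelial-like cells made up 320 primary and 3381 liver cells, and the sort can set these numbers. Macrophage-like cells numbered 1481 and 2842, T cell-like cells 117 and 150, dendritic-like cells 61 and 111 and neutrophil-like cells 221 and 505. Each class held all of its own markers at levels above 0 in both libraries. With 1 library per site no test was possible, and intervals are 95% and cover counting error only.

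A cell was called cycling if at least 3 different members had a UMI after its counts had been thinned at random to 1500. Neutrophils, which do not divide, gave the background: 0 of 221 in the primary library, which allows a share of up to 1.36%, but 35 of 505 in the liver library, or 6.93% (4.87% to 9.51%), at median depths of 2725 and 2082 UMIs. The liver library held 65373 barcodes of 500 to under 1000 UMIs, in which the members came to 1294 CPM and the 10 epithelial markers to 13264 CPM. The 13157 such barcodes of the primary library held 237 and 989 CPM. Thinned liver neutrophils of 1500 to under 3000 UMIs carried 7.60 epithelial marker UMIs each, against 0.432 in the primary library. Macrophages were split by depth at 3000, 5000 and 10000 UMIs. From shallow to deep, liver macrophages carried 4.35, 3.62, 2.13 and 1.31 epithelial marker UMIs each, and 9.33%, 8.15%, 1.13% and 6.15% were cycling. Primary macrophages carried 0.431, 0.323, 0.181 and 0.166, and 9.80%, 4.84%, 0.386% and 3.25% were cycling. The liver neutrophils were mostly shallow, 458 of 505 under 3000 UMIs, and the part of free RNA in the liver shares was not tested. At 5 or more members the liver neutrophil share was 0.99% (5 of 505).

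The shares of cycling epithelial-like cells at the 2 sites lay within counting error of each other. Of 320 primary cells 79 were cycling, or 24.7% (20.1% to 29.8%), and of 3381 liver cells 802, or 23.7% (22.3% to 25.2%). The difference, liver minus primary, was -0.97 percentage points (Newcombe interval -6.17 to 3.68). At 5 or more members the shares were 15.3% and 12.01%. Before thinning, shares of cells with 3 members were 52.2% and 47.9%. Epithelial-like cells of the 2 libraries were spread differently over the clusters. Cluster 6 held 145 of the 320 primary but 455 of the 3381 liver cells. Clusters 1, 2 and 9 held 12, 45 and 2 primary but 964, 924 and 388 liver cells.

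**Figure D3:**
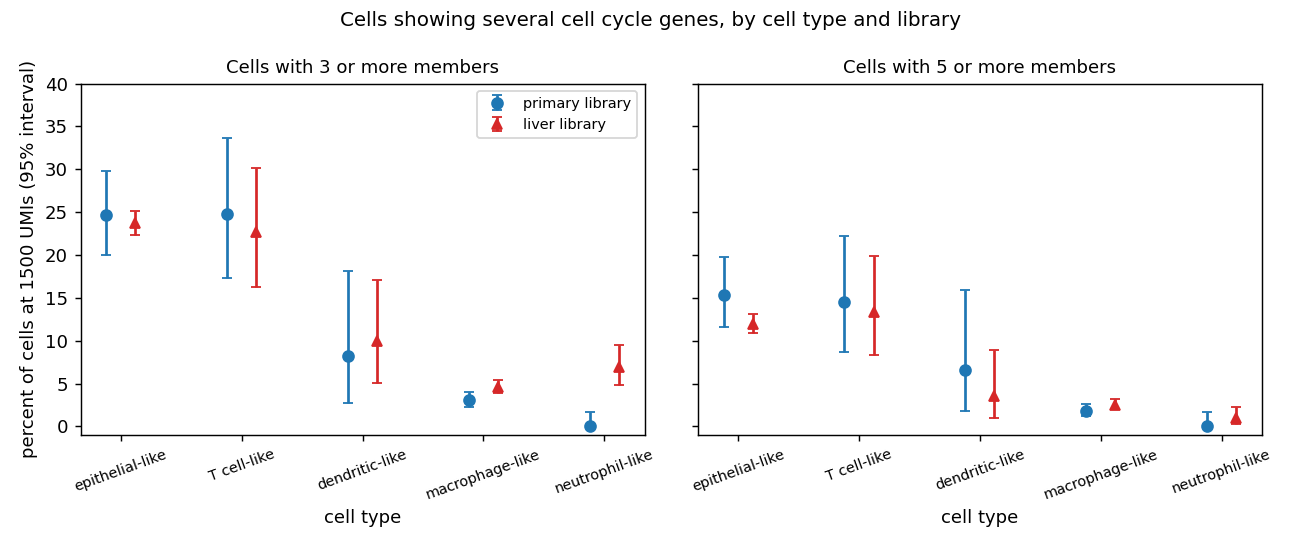
Percent of cells with at least 3 (left) or at least 5 (right) members seen at 1500 UMIs, by cell type and library, with exact 95% binomial intervals. Epithelial-like and T cell-like shares lie between 22.7% and 24.8% at 3 members in both libraries, and the liver neutrophil share falls from 6.93% to 0.99% between the panels.

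T cell-like cells had shares like those of the epithelium. Of 117 primary cells 29 were cycling, or 24.8% (17.3% to 33.6%), and of 150 liver cells 34, or 22.7% (16.2% to 30.2%), a difference of -2.12 points (-12.5 to 7.98). The cycling cells were almost all of the CD8 kind: among cells with Cd8a or Cd8b1 UMIs and no Cd4 UMI, 29 of 105 primary (27.6%) and 30 of 97 liver cells (30.9%) were cycling. With Cd4 UMIs only, 0 of 6 primary and 2 of 19 liver cells were cycling, and with neither gene 0 of 6 and 1 of 33, at lower median depths (7828, 3391, 4943 and 3503 UMIs, against 11028 and 7075 in the CD8 cells). Median depth of cycling and other T cells was 21090 and 9197 UMIs in the primary library and 10529 and 4862 in the liver library, and among cells of at least 10000 UMIs 24 of 62 and 18 of 26 were cycling. Among cells of at least 5000 UMIs, a limit added after seeing the data, shares were 26.4% and 34.5%. At that depth the liver share was the higher one, the reverse of the order over all T cells.

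Dendritic-like cells were few. Of 61 primary cells 5 were cycling, or 8.20% (2.72% to 18.1%), and of 111 liver cells 11, or 9.91% (5.05% to 17.0%), an interval that holds the liver neutrophil share. All lay in the cluster led by Xcr1, Itgae and Clec9a, genes of cross-presenting dendritic cells (5 of 57 and 11 of 80). The cluster led by Ccr7 and Fscn1, genes of migratory ones, had 0 of 4 and 0 of 31. These counts allow shares of up to 75.0% and 9.68%. At 5 or more members there were 4 dendritic-like cells in each library, and among cells of at least 5000 UMIs the order turned (8.93% and 6.94%).

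Macrophage-like cells were cycling least often of the 4 types. Of 1481 primary cells 45 were cycling, or 3.04% (2.22% to 4.04%), and of 2842 liver cells 131, or 4.61% (3.87% to 5.45%), a difference of 1.57 points (0.34 to 2.70). The liver share was below that of liver neutrophils, which were shallower (2082 against 11041 UMIs), and what part free RNA had in the difference was not tested. At 5 members the macrophage shares were 1.82% and 2.53%, against 0.0% and 0.99% in neutrophils. Epithelial marker UMIs per thinned liver macrophage were 1.39 in cycling and 1.80 in other cells, at median depths of 19764 and 10895 UMIs. Among macrophages of at least 10000 UMIs, 36 of 1109 primary cells (3.25%) and 102 of 1659 liver cells (6.15%) were cycling.

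Different clusters held most macrophages at the 2 sites: 4, 7 and 13 in the primary and 0, 5 and 8 in the liver library. In the liver library, cluster 0, led by Gpnmb, Fabp5, Fabp4 and Lpl, lipid-handling genes, had 85 cycling of 1084 cells, or 7.84% (6.31% to 9.60%). Cluster 8, led by Chil3, Vcan, Ccr2 and Ly6c2, monocyte genes, had 2 of 423, or 0.473% (0.0573% to 1.70%). These 2 clusters came from 1 library and had median depths of 14592 and 9355 UMIs. In the primary library, cluster 7, led by Cxcl9 and Gbp2b, interferon-induced genes, had 24 of 420, or 5.71%, cluster 4, led by Pde4b, had 14 of 705, or 1.99%, and cluster 13 had 0 of 186, which allows a share of up to 1.61%.

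Epithelial clusters differed as widely. In the liver library, cluster 6 had 176 cycling of 455 cells, or 38.7% (34.2% to 43.3%), while cluster 9, led by Lgals2, Phgr1, Gkn1 and Tff1, with gastric-type secretory genes among them, had 12 of 388, or 3.09% (1.61% to 5.34%). The median depths of these 2 were 6001 and 5954 UMIs. Cluster 6 had 50 of 145, or 34.5%, in the primary library; its leading gene is the member Ube2c, although the members were left out when cells were clustered. Cluster 2, the shallowest at a median of 1994.5 UMIs in liver, had 257 of 924, or 27.8%, in the liver library, and without it the epithelial shares were 25.8% and 22.2%.

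**Figure D4:**
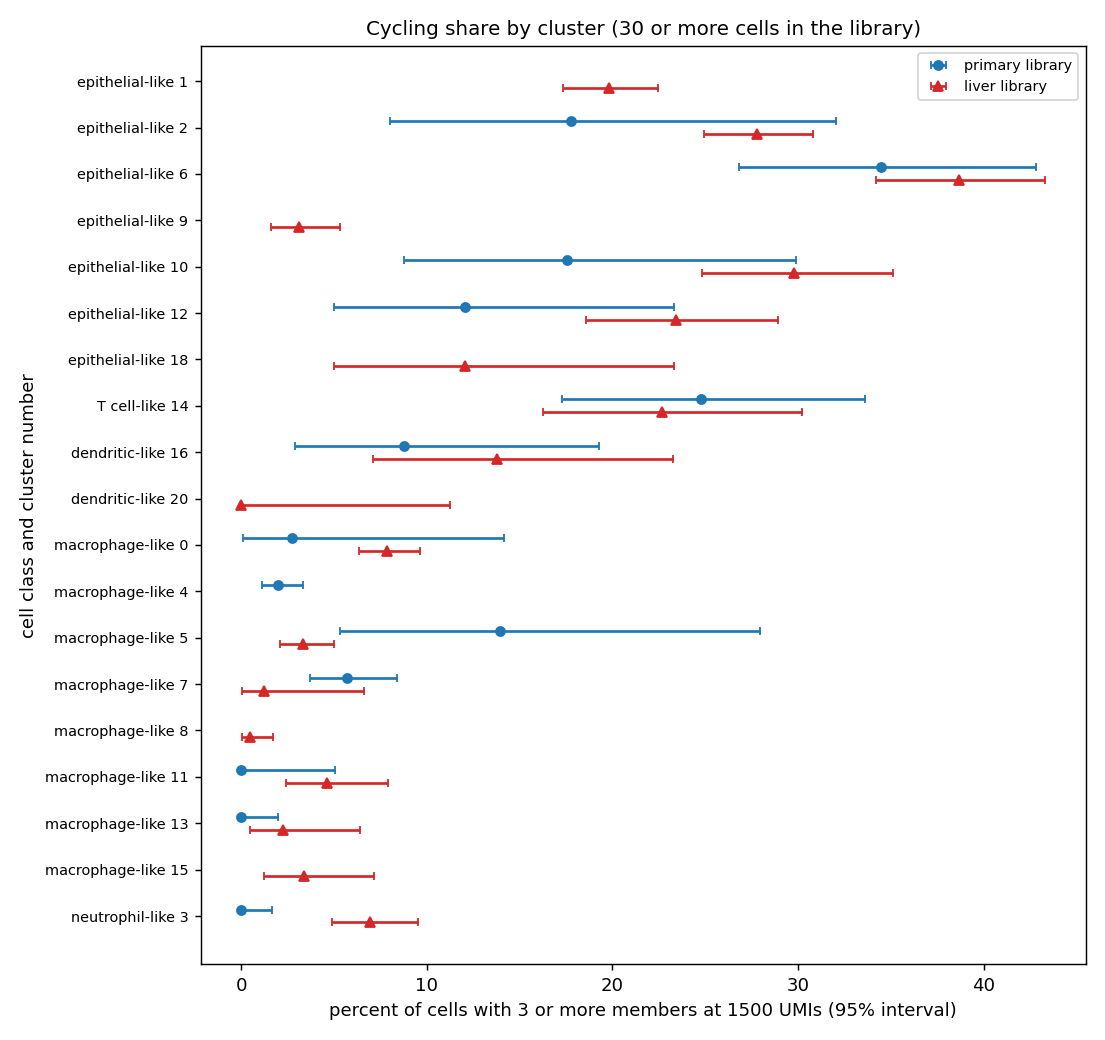
Percent of cells with at least 3 members at 1500 UMIs for each cluster with 30 or more cells in a library, with exact 95% binomial intervals; labels give the class and the cluster number. The liver values of epithelial-like cluster 9 (3.09%) and macrophage-like cluster 8 (0.473%) lie far below those of clusters 6 (38.7%) and 0 (7.84%).

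The balance of phases was taken as the share of member UMIs that came from the 10 S phase genes in cycling cells. It was 16.4% (13.7% to 19.4%) in primary and 23.0% (21.9% to 24.1%) in liver epithelial-like cells, and 17.0% and 24.1% in macrophage-like cells. T cell-like cells went the other way, with 32.7% (26.9% to 38.9%) in primary and 24.9% (20.3% to 29.8%) in liver. Dendritic-like cells had 20.8% from 5 cells and 52.9% from 11, the latter on 51 UMIs. UMIs of 1 cell are not independent, so these intervals are too narrow. With another random draw of the thinning, liver minus primary came to 4.95 points in place of 6.60 in the epithelium, 3.49 in place of 7.16 in macrophages, -3.49 in place of -7.81 in T cells and 14.1 in place of 32.2 in dendritic cells. With the listed S and G2/M genes that are no members in their place, the shares were 15.7% and 18.1% in the epithelium, 21.5% and 23.0% in macrophages, 29.0% and 27.6% in T cells and 19.2% and 32.1% in dendritic cells. By cell, S phase members outnumbered the G2/M ones in 13 of 79 (16.5%) and 125 of 802 (15.6%) cycling epithelial cells. The higher liver share by UMIs was thus not seen by cell in the epithelium. In the other types the counts were 5 of 45 and 28 of 131 macrophages, 12 of 29 and 6 of 34 T cells, and 0 of 5 and 6 of 11 dendritic cells. These counts set 10 S phase genes against 22 G2/M genes.

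Summed over all cells of a type, members were highest in T cell-like cells, with 3059 CPM (2972 to 3147) in primary and 2892 CPM (2785 to 3001) in liver. Epithelial-like cells had 1364 and 1566 CPM, dendritic-like cells 1074 and 598 CPM, macrophage-like cells 473 and 590 CPM and neutrophil-like cells 119 and 595 CPM. These sums weight each cell by its depth. Cycling T cells were deeper than other T cells in both libraries, while cycling epithelial-like cells were shallower than other epithelial-like cells. After thinning to equal depth, members made up 0.179% of UMIs in T cell-like and 0.168% in epithelial-like cells in primary. In liver these shares were 0.193% and 0.147%. T cell-like cells thus still led, but by less than in the sums. In liver, macrophage and dendritic sums were close to the neutrophil sum, although these cells differed in depth and in epithelial marker load. Epithelial markers came to 4786.5 CPM in liver neutrophils, 999.6 in macrophages and 1698.6 in dendritic cells. Median depths were 2082, 11041 and 7576 UMIs, and the part of free RNA in these sums was not tested. A few cells carried much of these sums: the 7 primary T cells with the most member UMIs held at least 50% of those of the type, and the top dendritic cell held 18.4% in primary and 24.2% in liver.

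**Figure D5:**
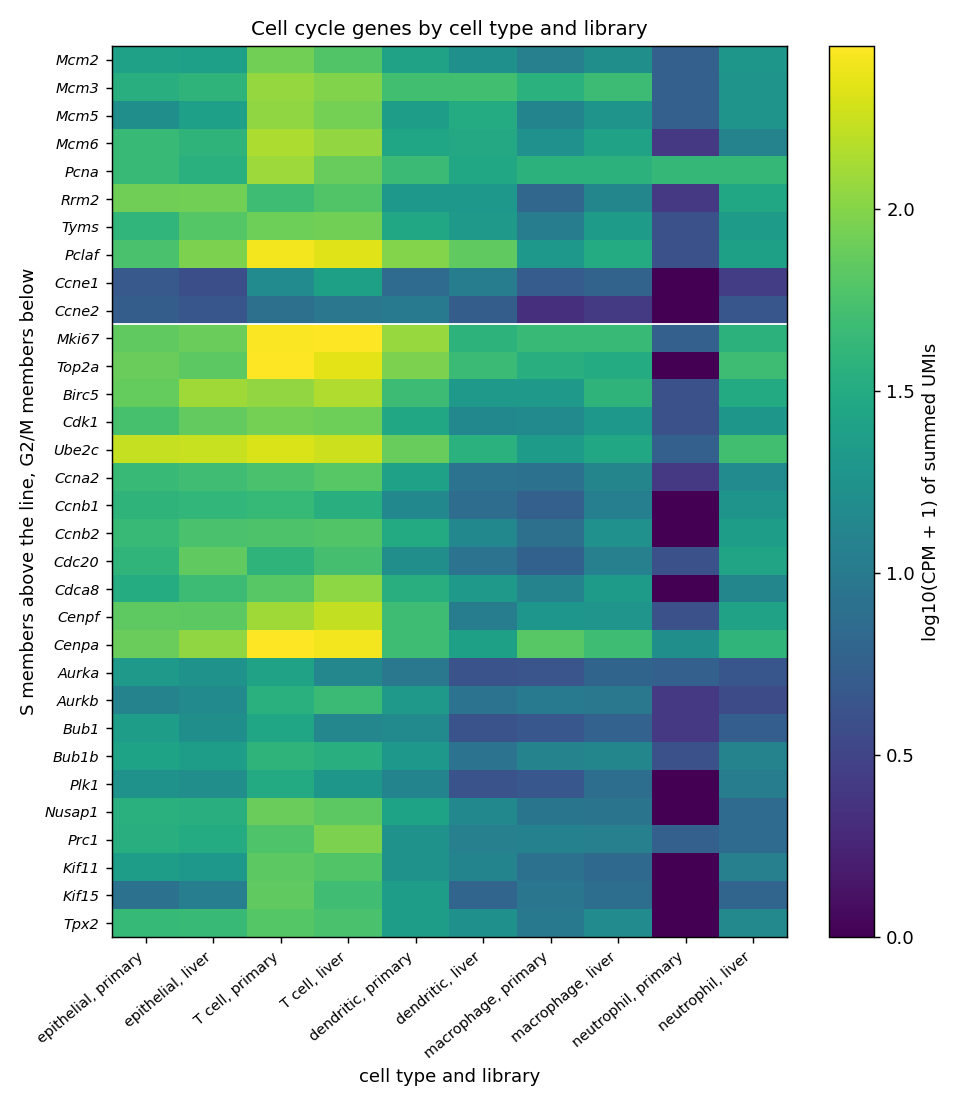
Level of each member in summed UMIs, as log10(CPM + 1), by cell type and library. T cell-like columns are the brightest for Mki67, Top2a, Cenpa and Pclaf, Ube2c leads the epithelial-like columns (169 and 173 CPM), and in primary neutrophil-like cells Pcna is the highest member (41.6 CPM).

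The make-up of the member UMIs differed by cell type. The 3' libraries count 1 end of each molecule, so UMIs do not scale with gene length. In epithelial-like cells Ube2c was the most abundant member at both sites, with 12.4% of member UMIs in primary and 11.04% in liver. There were 0.411 (0.358 to 0.472) Mki67 UMIs for each Ube2c UMI in primary and 0.439 (0.416 to 0.462) in liver. In T cell-like cells the ratio was 1.33 and 1.53, and in macrophage-like cells 2.06 and 1.60. The epithelial intervals did not overlap those of T cells or macrophages in either library. UMIs of 1 cell are not independent, so the intervals of these ratios are too narrow, and the lack of overlap is no test. The top cell held 12.38% of member UMIs in primary epithelial-like, 11.25% in T cell-like and 4.09% in macrophage-like cells. In liver it held 1.20%, 7.42% and 1.98%. For Rrm2 against Mki67 the order of the cell types turned. The ratios were 1.17 and 1.09 in the epithelium, 0.177 and 0.212 in T cells and 0.122 and 0.275 in macrophages. Liver neutrophils had values between these, 0.732 (0.477 to 1.12) Mki67 per Ube2c UMI and 0.756 (0.458 to 1.24) Rrm2 per Mki67 UMI. Cenpa, the centromeric histone, was the first member by UMIs in macrophages of both libraries, at 64.1 and 47.7 CPM.

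Between sites, folds were read for members with enough UMIs, at least 20 summed over both libraries. In epithelial-like cells 0 of 32 were 2-fold or more apart, where 14.9% of all genes counted were (7.47% higher and 7.44% lower in liver), and ratios of liver over primary ran from 0.686 (Bub1, a checkpoint kinase) to 1.79 (Cdc20). Macrophage-like cells had 5 members 2-fold or more higher in liver, where 11.1% of genes were, and 0 lower, where 9.44% were (20.6% in all). These were Ccnb2 (6.97 and 16.4 CPM), Ccnb1 (4.58 and 10.5), Rrm2 (5.36 and 12.2), Cdc20 (4.72 and 10.5) and Tyms (9.58 and 21.0). Liver neutrophils held 22.1, 17.7, 27.4, 25.6 and 21.2 CPM of the same 5, so the 5 macrophage levels lay at or below those of liver neutrophils. The neutrophils also held more epithelial marker CPM (4786.5 against 999.6 in liver macrophages), and the part of free RNA in these levels was not tested. T cell-like cells had 1 of 31 lower, Bub1 (27.1 and 12.4 CPM, 42 and 12 UMIs), where 4.62% of genes were, and 0 higher, where 4.44% were (9.06% in all). Dendritic-like cells had 15 of 29 lower in liver, where 6.1% of genes were, and 0 higher, where 5.44% were (11.5% in all). All 15 were G2/M members, from Cenpf (47.1 and 9.62 CPM) to Ccnb1 (12.9 and 6.41 CPM). At least 50% of the primary dendritic member UMIs came from 3 cells, and the median depth of dendritic-like cells was 24684 UMIs in primary and 7576 in liver.

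Of genes outside the 32, Hist1h1b, a linker histone gene, and Stmn1, a microtubule regulator, were among the 10 with the highest ratio of cycling over other cells in all 4 types. Hist1h1b stood at 224 CPM in cycling and 9.58 CPM in other epithelial cells, at 387 and 13.2 CPM in macrophages, at 742 and 30.1 CPM in T cells and at 511 and 9.12 CPM in dendritic cells. The core histone genes Hist1h2ae and Hist1h2ap, the chromatin protein gene Hmgb2 and the tubulin genes Tuba1b and Tubb4b were among the 10 in 3 types each. Among T cells the list also held Ccl1, a chemokine gene, at 591 and 98.4 CPM. The remaining genes on these lists, of which 11 occurred in 1 type each, included Cks2, Ube2s and Dek in the epithelium, Tmpo, Selenoh and H2afv in macrophages, Rrm1 in T cells and Knl1, H2afx and Atad2 in dendritic cells. These ratios describe cells chosen by the members, and no test was made.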

How the data were processed

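Total RNA of tumor tissue in 6 bulk libraries and CD45-sorted cells in 2 single-cell libraries were used. The deposited bulk table holds raw counts per symbol and a second holds FPKM; per the submitters' processing notes mm10, bcl2fastq and Cell Ranger were used, with no role given, and the bulk aligner and counter are not given in the sources used here. The deposited single-cell matrices hold UMI counts for every barcode, unfiltered; per the labels' protocols the kit is 3' v2, although the barcode list is longer than that kit's. All 32 members, the named genes (the called genes of each other list, up to 3 in each direction by p-value, 8 fixed genes, and the 10 non-members with the highest CPM ratio of cycling over other cells in each type, given 200 CPM in the cycling cells) and the lists were chosen with earlier results of these data known. Bulk counts were fitted in edgeR 4.0.16 (R 4.3.3; TMM, filterByExpr, robust quasi-likelihood, group only, two-sided), with DESeq2 1.42.0 and limma 3.58.1 as alternatives. On simulated counts for this comparison, of 100 genes changed by a log2 of 1 the fit recovered 25, of 100 changed by 2 it recovered 90, and 12 unchanged genes were called, over 16216 genes. Intervals of log2 changes are 95% intervals of the fit.

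Single cells were analysed with scanpy 1.11.5 and leidenalg 0.10.2 (2000 variable genes, 30 components, 15 neighbors, resolution 1, no integration, 224 cell cycle genes left out). Scrublet's own threshold marked 5 primary and 1 liver barcodes and was taken not to have worked; the highest-scoring 41 (1.80%) and 464 (6.09%) were removed, at 0.8% per 1000 barcodes. Clusters were named for the class with the highest marker fold over the median of the other clusters, given at least 3 markers over 2-fold and in 10% of cells. The doublet and naming rules were chosen after seeing the data. Shares have exact (Clopper-Pearson) and CPM exact Poisson intervals; a count of 0 was read as allowing 3. Bulk libraries were not paired by replicate number in the main fit. Their deviations from the site means correlated at -0.18, 0.25 and 0.09. With 3 libraries per site these values cannot settle whether the libraries were paired. Columns of per-sample values without a sample numbered 0. Some items that the rules would name are not reported here.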

Additional observations from a re-analysis of the deposited data

How the results depend on the processing

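Members were called in bulk under 1 of 14 other settings: with plain totals in place of TMM, 2 were lower (Mcm6 and Cdc20), but this moved the median of all genes from -0.07 to -0.52. The replicate block changed no member's call, and under this pairing 1 other cell cycle gene was higher instead of 2 and 6 lower instead of 9: Ung (adjusted p = 0.0673), Cdc25a (0.0728), Cdt1 (0.0662) and Jpt1 (0.0761) lost their edgeR calls. Of those other genes, 1 was higher and 37 lower with plain totals, and 1 higher without the filter; leaving out 1 library gave 0 to 2 higher and 1 to 11 lower, with 0 higher without liver tumor 1 and 1 lower without liver tumor 2. Over all genes plain totals gave 2110 higher and 4646 lower, against 2755 and 1032.

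The difference of cycling shares, liver minus primary in points, stayed within counting error of the reported value in 31 of 44 combinations of cell type and setting, although its sign turned in some of these (in T cells 5.52 at 2 members, in dendritic cells -2.95 at 5 members). At 2 members it was 5.64 in the epithelium and 4.05 in macrophages. Thinning to 3000 UMIs gave 3.98 in macrophages. Without thinning it was 8.04 in macrophages, -15.4 in T cells and -30.3 in dendritic cells. Leaving out cells with foreign markers gave 2.91, 18.4 and 10.8 in these types, with 2 liver T cells left. Genes that are no members gave 10.2, 10.8 and 10.4, while calling 72.9% of liver neutrophils cycling. At 5000 UMIs T cells gave 8.11.

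The difference in S share moved from 6.60 points in the epithelium to 2.64 at 3000 UMIs, 0.25 without thinning and 2.39 with non-members. With non-members it moved from 7.16 to 1.49 in macrophages and from 32.2 to 12.9 in dendritic cells, and at 3000 UMIs from -7.81 to -0.29 in T cells. Another random draw of the thinning alone gave 14.1 in dendritic cells, 3.49 in macrophages, -3.49 in T cells and 4.95 in the epithelium. The cause was not tested. The number of liver T and dendritic cells limits these shares. Free RNA in the liver library may limit them too, and its part was not tested.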
